A study of Mus musculus with 11 samples.

Results

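The genes described here are 10 genes of hepatic stellate cells and of the matrix they lay down, Col1a1, Col1a2, Col3a1, Acta2, Des, Tagln, Timp1, Tgfb1, Lox and Pdgfrb. They were taken as a fixed list, and their probes were found through the RefSeq accession that the scanner files give for each probe. The 10 genes had 15 of the 56605 probes and were 10 of the 22907 genes that could be named. Hepatic stellate cells lie between the hepatocytes and the sinusoidal endothelium, store vitamin A in the healthy liver and become contractile, collagen-producing myofibroblasts after injury. Activated stellate cells respond to platelet-derived growth factor and transforming growth factor beta, and they secrete the fibrillar collagens that make up scar tissue. Notch receptors act through their intracellular domain, NICD, which is released on ligand binding and joins the DNA-binding protein Rbpj in the nucleus.

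Livers were taken 5 days after intraperitoneal injection of male C57Bl6/J mice, 8 weeks old according to the methods, with adeno-associated virus 8 (AAV8) vectors. Mice of the GFP group (3 arrays) were given AAV8-GFP at 6e+11 viral genomes each and no other vector. The NICD1 group (3 arrays) and the NICD2 group (3 arrays) received 3e+11 viral genomes of the NICD1 or the NICD2 vector together with 3e+11 of the GFP vector. The NICD1&2 group (2 arrays) carried NICD1 and NICD2 vectors at 3e+11 each, without AAV8-GFP, so that all groups shared the total dose. The constructs carried the CMV promoter, which is not restricted to a cell type, and AAV8 reaches mainly hepatocytes, so the stellate cells of these livers were measured beside hepatocytes that carried the vector. The RNA came from whole liver, where fewer cells of a type and less RNA per cell cannot be told apart. The labels do not say which arrays came from separate mice, so p-values measure the spread between these arrays, which may in part be technical. Between 57.0% and 62.0% of the spots on an array were well above background. Albumin (Alb), the main secretory product of hepatocytes, stood at log2 levels of 9.94 to 10.37 on the 11 arrays. Of 23 tested genes in a list of other stellate cell markers, 22 were well above background on every array, among them Lrat, which esterifies vitamin A, and Reln, a secreted glycoprotein of stellate cells. Levels are log2 signals less the 75th percentile of the same array, so 0 is the level of that percentile, and a level is compared only with other levels of the same probe.

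Promoter sequences of 6 of the 10 genes were available from RefSeq on GRCm38.p6, for Col1a2, Col3a1, Des, Tgfb1, Acta2 and Timp1. The 250 bases before each start were searched on both strands for TGGGAA, the core letters that Rbpj recognises, because the vectors act through that protein. The letters occurred in 2 of the 6 promoters, those of Acta2 and Timp1, and in 21.6% of all 32851 promoters of the table. Both are shown 5′ to 3′ on the strand of the gene with the match in capitals, Acta2 at chr19:34255374-34255623 on the minus strand and Timp1 at chrX:20869916-20870165 on the plus strand.
Acta2: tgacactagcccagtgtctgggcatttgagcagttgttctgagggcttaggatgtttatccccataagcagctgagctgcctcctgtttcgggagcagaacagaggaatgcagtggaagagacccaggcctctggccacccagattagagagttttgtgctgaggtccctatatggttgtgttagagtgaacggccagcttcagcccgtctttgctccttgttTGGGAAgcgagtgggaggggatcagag
Timp1: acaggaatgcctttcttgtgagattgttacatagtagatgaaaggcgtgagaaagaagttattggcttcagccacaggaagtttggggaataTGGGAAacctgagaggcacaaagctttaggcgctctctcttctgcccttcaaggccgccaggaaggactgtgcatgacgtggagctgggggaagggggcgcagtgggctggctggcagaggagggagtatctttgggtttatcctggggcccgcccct
The match began 27 bases before the start in Acta2 and 158 bases before it in Timp1. The promoter of Col1a2, at chr6:4505368-4505617 on the plus strand, is shown for comparison as one without those letters. It held CCAAT, a box that the factor NF-Y binds, 109 bases before the start, and Timp1 held it on the opposite strand, as ATTGG, 190 bases before the start. The box was in 2 of the 6 promoters and in 33.8% of all promoters on either strand.
Col1a2: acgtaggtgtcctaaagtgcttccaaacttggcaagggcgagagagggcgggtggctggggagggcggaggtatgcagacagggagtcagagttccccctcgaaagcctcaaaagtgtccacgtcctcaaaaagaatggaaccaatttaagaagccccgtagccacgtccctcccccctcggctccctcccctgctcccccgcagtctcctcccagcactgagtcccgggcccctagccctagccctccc
A match is a description of the letters only, and binding was not measured here.

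The fibrillar collagens did not pass a threshold against GFP in any group, neither the study definition of an altered gene (a change of more than 1.8-fold with P below 0.15 before adjustment) nor an adjusted p under 0.05 in limma, and the arrays of every NICD group overlapped with those of GFP. Col1a1 and Col1a2 encode the chains of type I collagen, the main fibre of scar tissue, and Col3a1 encodes type III collagen. For Col1a1, the GFP arrays read -0.99, -0.74 and -0.27, the NICD1 arrays -0.06, -0.70 and -0.40, the NICD2 arrays -0.31, -0.40 and -0.19, and the NICD1&2 arrays -0.81 and -0.11. The lowest Col1a1 level was on GFP 1, and every other group overlapped with GFP. Against GFP, the log2 fold change of Col1a1 was 0.28 (SE 0.25) with NICD1, 0.37 (SE 0.25) with NICD2 and 0.20 (SE 0.27) with NICD1&2, with adjusted p values of 0.926, 0.868 and 0.721 in limma. The second Col1a1 probe gave 0.24, 0.37 and 0.19, so both probes of this gene gave similar values. For Col3a1, the arrays read 1.38, 1.67 and 2.07 in GFP, 1.97, 1.71 and 1.75 in NICD1, 1.92, 1.83 and 2.02 in NICD2, and 1.47 and 1.99 in NICD1&2. The group means of Col3a1 spanned 0.22, less than the SD within groups of 0.25.

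Among Col1a1, Col1a2 and Col3a1, the narrowest spread was that of Col1a2, with an SD within groups of 0.16. Its arrays read 2.33, 2.53 and 2.72 in GFP, 2.90, 2.58 and 2.64 in NICD1, 2.91, 2.71 and 2.80 in NICD2, and 2.55 and 2.35 in NICD1&2. Against GFP the log2 fold change was 0.18 (SE 0.13) with NICD1, 0.28 (SE 0.13) with NICD2 and -0.08 (SE 0.15) with NICD1&2, with adjusted p values of 0.915, 0.775 and 0.801 in limma. Both NICD1&2 arrays lay below all NICD1 and all NICD2 arrays. The log2 difference of NICD1&2 was -0.26 (95% interval -0.60 to 0.08) from NICD1 and -0.36 (95% interval -0.70 to -0.02) from NICD2, and the adjusted p values in limma were 0.484 and 0.560. Col1a1 and Col3a1 did not share that order, since the higher NICD1&2 array lay among or above the NICD1 arrays for both.

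The size of the collagen differences depended on which GFP arrays were kept. GFP 1 was the lowest of the 11 arrays for Col1a1, Col1a2, Col3a1 and Des. Without it, the log2 fold change for NICD1 was 0.12 for Col1a1, 0.08 for Col1a2, -0.06 for Col3a1 and 0.01 for Des. For NICD2 it was 0.21, 0.18, 0.05 and 0.10 in the same order, and for NICD1&2 it was 0.04, -0.17, -0.14 and 0.05. GFP 3 was the highest GFP array for the same genes, and leaving it out moved the values the other way. They were then 0.48, 0.28, 0.29 and 0.27 for NICD1 and 0.57, 0.37, 0.40 and 0.35 for NICD2. The arrays lay on 2 slides that each held all 4 groups. On slide 1 the NICD1 array exceeded the mean of the 2 GFP arrays by 0.80 for Col1a1, and on slide 2 the 2 NICD1 arrays averaged -0.28 relative to the 1 GFP array. With the slide as a block the log2 fold change of Col1a1 for NICD1 was 0.21 (adjusted p = 0.934 in limma).

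**Figure D1:**
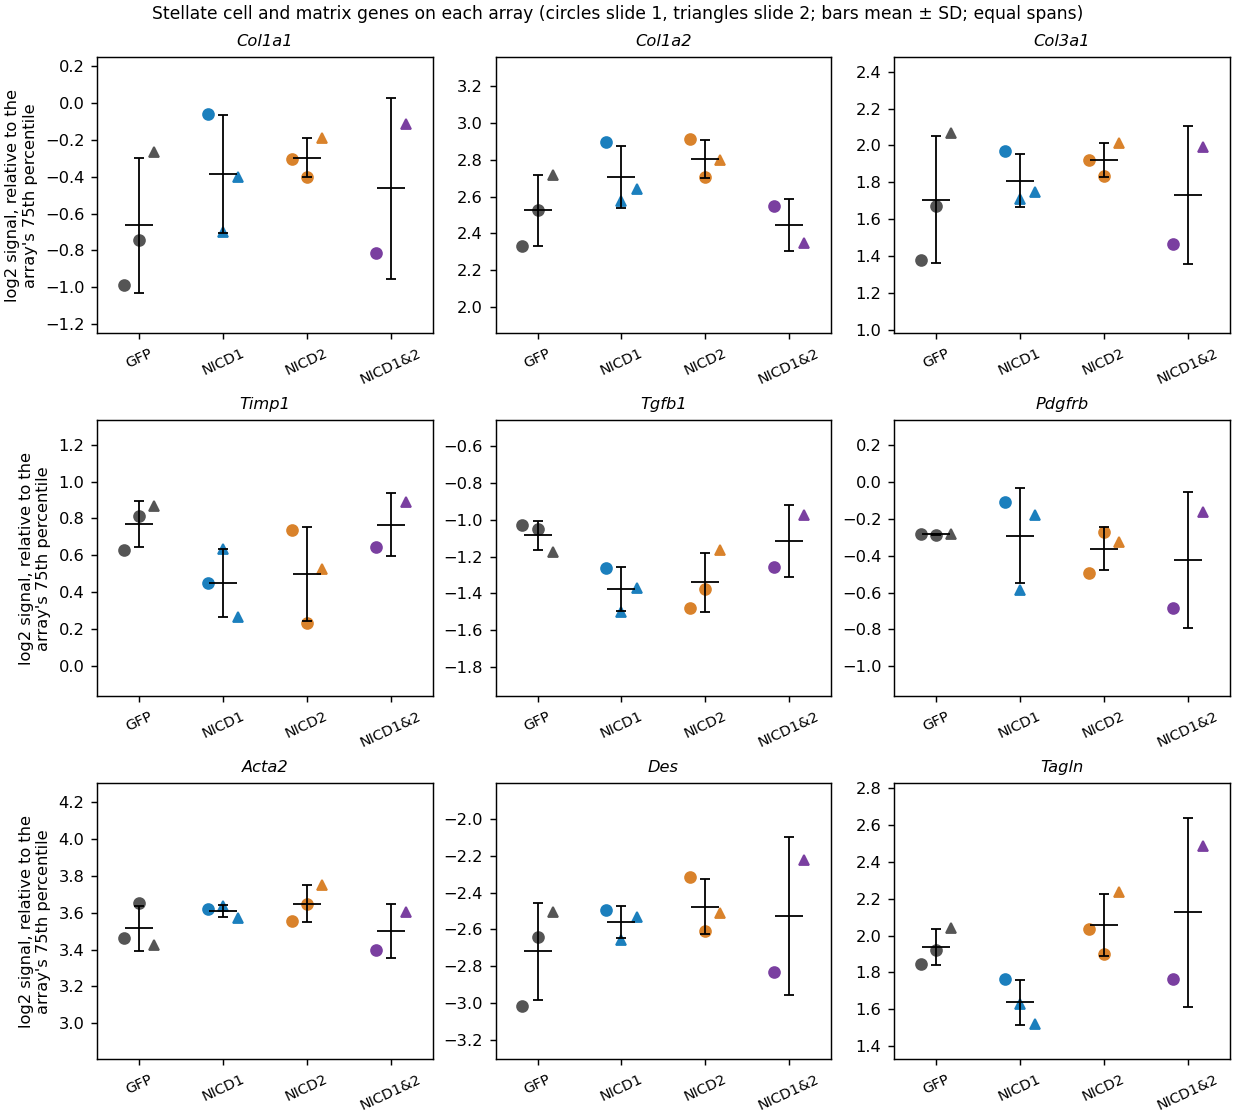
Log2 level of the representative probe of the 9 measurable genes on each of the 11 arrays, relative to the array's 75th percentile, by group. Circles are slide 1, triangles slide 2, and bars give the mean ± SD of 3 arrays (2 for NICD1&2), and all panels span 1.5 log2 units. The 3 NICD1 arrays of Tagln and of Tgfb1 sit below the 3 GFP arrays, and the groups overlap in the other panels of NICD1 against GFP.

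Among the regulators of matrix turnover, Timp1 did not pass a threshold and Lox was near or below the background. Timp1 encodes an inhibitor of matrix metalloproteinases. Its arrays read 0.63, 0.81 and 0.87 in GFP, 0.45, 0.63 and 0.26 in NICD1, 0.74, 0.23 and 0.53 in NICD2, and 0.64 and 0.89 in NICD1&2. The log2 fold change of Timp1 was -0.32 (SE 0.16) with NICD1, -0.27 (SE 0.16) with NICD2 and 0.00 (SE 0.18) with NICD1&2, with adjusted p values of 0.903, 0.840 and 0.993 in limma. Timp1, whose promoter carries TGGGAA, read on the low side with either single vector. So did Tgfb1, whose searched promoter lacks the letters, with -0.29 and -0.26 on its brighter probe. Acta2, the other gene with those letters, differed from GFP by 0.09, 0.13 and -0.01 on its brightest probe. A second Acta2 probe gave -0.42, -0.11 and -0.56. A relation between the letters and the values was not tested. Lox encodes lysyl oxidase, which cross-links collagen outside the cell. One of its 2 probes was well above background on 0 of the 11 arrays and the other on 1, NICD2 1, where it read -1.61 against -6.84 to -4.90 on the other 10. Neither Lox probe was tested, and no fold change is given.

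Tgfb1, which encodes the main fibrogenic cytokine of the liver, and Pdgfrb, the receptor through which platelet-derived growth factor drives stellate cell division, did not meet the study definition and were not called either. The brighter Tgfb1 probe read -1.03, -1.05 and -1.17 in GFP, -1.26, -1.50 and -1.37 in NICD1, -1.48, -1.38 and -1.16 in NICD2, and -1.25 and -0.97 in NICD1&2. All 3 NICD1 arrays lay below all 3 GFP arrays, a log2 fold change of -0.29 (95% interval -0.57 to -0.01, unadjusted p = 0.0423 and adjusted p = 0.891 in limma). Without GFP 1 that value was -0.26 and its unadjusted p was 0.109 in limma. The values for NICD2 and NICD1&2 were -0.26 (SE 0.12) and -0.03 (SE 0.14). The dimmer Tgfb1 probe gave 0.03 (SE 0.22), -0.13 (SE 0.22) and -0.20 (SE 0.25) in the same comparisons, so the low reading with NICD1 was seen on 1 probe of 2. Within slides, the brighter probe gave -0.22 on slide 1 and -0.26 on slide 2 for NICD1. Pdgfrb read -0.28, -0.29 and -0.28 in GFP, -0.11, -0.58 and -0.18 in NICD1, -0.49, -0.27 and -0.32 in NICD2, and -0.69 and -0.16 in NICD1&2. Its fold changes on the log2 scale were -0.01, -0.08 and -0.14, and the GFP arrays lay inside the range of the NICD1 and NICD1&2 arrays.

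Macrophages also express Tgfb1 and Timp1, so the macrophage markers are given beside them. Of 12 marker genes, 0 were higher with NICD1 and 12 were lower, with a median log2 fold change of -0.28, whereas 52.9% of all tested probes were higher. With NICD2, 11 of 12 were lower with a median of -0.21, and with NICD1&2, 7 of 12 were lower with a median of -0.01. Of these genes 0 were called in any of the 3 comparisons. Marco, a scavenger receptor of Kupffer cells, met the study definition with NICD1 (log2 fold change -0.89, SE 0.45, adjusted p = 0.903 in limma), with overlapping arrays. Summed on the linear scale, relative to the 75th percentile, the 12 macrophage genes ranged from 99.7 to 144.2 in GFP, 98.4 to 111.1 in NICD1, 101.0 to 115.9 in NICD2 and 125.4 to 139.8 in NICD1&2. All 12 were tested and 11 were well above background on every array. The part of these markers in the Tgfb1 and Timp1 values was not tested.

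The contractile and filament genes did not pass a threshold, and the 3 NICD1 arrays of Tagln were the only ones of these genes to lie apart from GFP on a representative probe. Acta2 encodes smooth muscle actin, the usual marker of activated stellate cells. Its brightest probe read 3.46, 3.66 and 3.43 in GFP, 3.62, 3.64 and 3.57 in NICD1, 3.55, 3.65 and 3.75 in NICD2, and 3.40 and 3.60 in NICD1&2. The SD within groups was 0.10, the smallest among the 9 genes, and the 95% intervals against GFP ran from -0.14 to 0.33 with NICD1, from -0.10 to 0.37 with NICD2 and from -0.28 to 0.25 with NICD1&2. A second Acta2 probe disagreed. It read -1.27, -0.85 and -1.73 in GFP, -1.63, -1.80 and -1.66 in NICD1, -1.65, -1.37 and -1.15 in NICD2, and -2.14 and -1.55 in NICD1&2. Its log2 fold changes were -0.42 (SE 0.24), -0.11 (SE 0.24) and -0.56 (SE 0.27), with adjusted p values of 0.910, 0.984 and 0.362 in limma. Another Acta2 probe was well above background on 0 arrays.

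**Figure D2:**
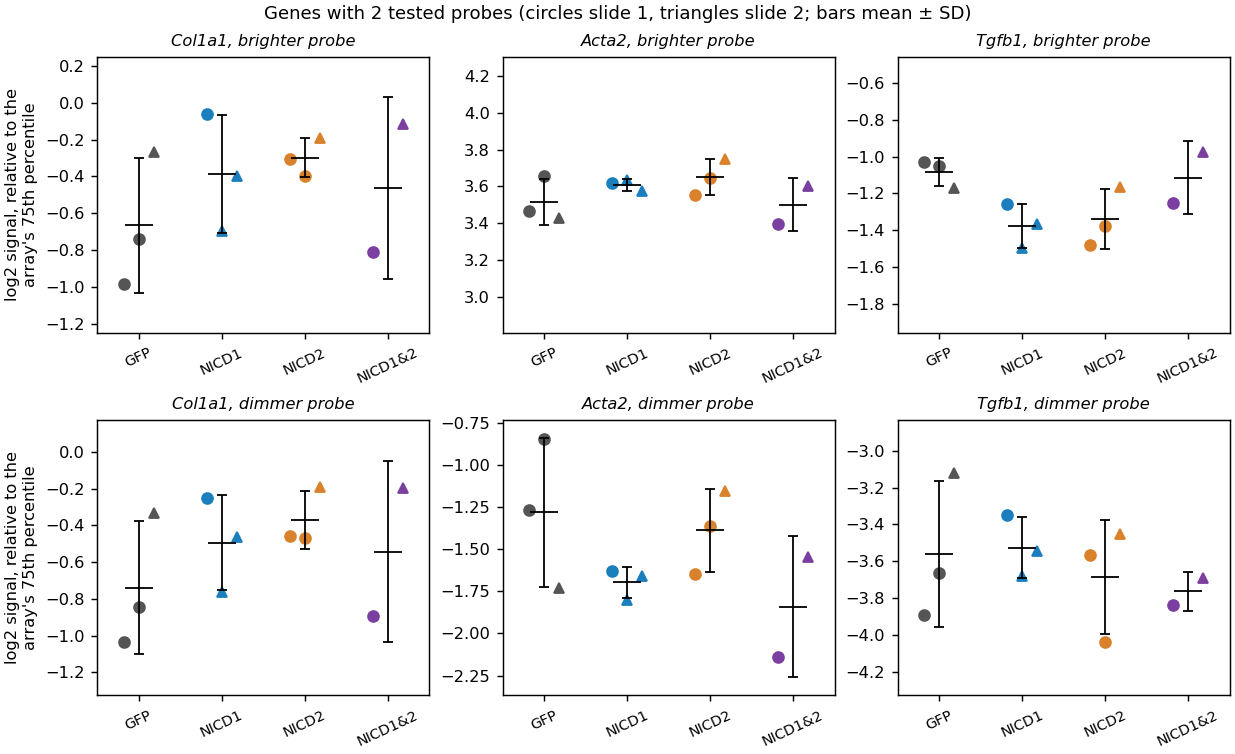
Log2 level of the 2 tested probes of Col1a1, Acta2 and Tgfb1 on each array, relative to the array's 75th percentile, by group, with bars for mean ± SD. The Col1a1 probes give like patterns, whereas the dimmer Acta2 probe has a GFP range from -1.73 to -0.85 and the dimmer Tgfb1 probe lacks the separation of NICD1 from GFP.

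Des encodes desmin, the intermediate filament by which quiescent stellate cells are often stained. Its arrays read -3.01, -2.64 and -2.50 in GFP, -2.49, -2.66 and -2.53 in NICD1, -2.31, -2.61 and -2.51 in NICD2, and -2.83 and -2.22 in NICD1&2. The log2 fold change of Des was 0.16 with NICD1, 0.24 with NICD2 (both SE 0.18) and 0.19 with NICD1&2 (SE 0.21), and the groups overlapped. Tagln encodes transgelin, an actin-binding protein of smooth muscle and myofibroblasts. It read 1.85, 1.92 and 2.04 in GFP, 1.77, 1.63 and 1.52 in NICD1, 2.04, 1.90 and 2.24 in NICD2, and 1.76 and 2.49 in NICD1&2. All 3 NICD1 arrays lay below all GFP and all NICD2 arrays, whereas the NICD1&2 arrays lay far apart, 1 below and 1 above all GFP arrays. The log2 fold change of Tagln against GFP was -0.30 (SE 0.18) with NICD1, 0.12 (SE 0.18) with NICD2 and 0.19 (SE 0.20) with NICD1&2, with adjusted p values of 0.914, 0.968 and 0.648 in limma. Within slides the NICD1 difference was -0.12 on slide 1 and -0.47 on slide 2.

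Across the 9 genes with a tested probe, 0 met the study definition and 0 were called (adjusted p under 0.05 in limma) in any comparison against GFP. Of all 36055 tested probes, the study definition held for 2.22% with NICD1, 1.98% with NICD2 and 6.22% with NICD1&2, and the adjusted p for 0.00832%, 0.0527% and 0.0915%. At an unadjusted p under 0.05 in limma, 1 of the 9 genes passed with NICD1 (Tgfb1) and 0 with NICD2 or NICD1&2. Of the 36055 tested probes, 1978, 2449 and 5333 passed that limit in the same order. An unmoderated linear model called 0 of the 9 as well. On representative probes the largest fold change among the 9 was 1.25 with NICD1, 1.29 with NICD2 and 1.15 with NICD1&2. The second Acta2 probe was 1.33-fold lower with NICD1 and 1.47-fold lower with NICD1&2. The 95% intervals of the representative probes were not adjusted for the number of genes. They lay within 1.8-fold of GFP for 9 of 9 genes with NICD1, 8 of 9 with NICD2 and 9 of 9 with NICD1&2. The exception was Col1a1 with NICD2, whose interval reached 0.92 on the log2 scale, 1.89-fold. Intervals of second probes also passed 1.8-fold. For Acta2 they ran from -0.96 to 0.13 with NICD1 and from -1.17 to 0.05 with NICD1&2, and for Col1a1 with NICD2 from -0.17 to 0.90. The median log2 fold change of the 9 genes was 0.09, 0.13 and 0.00, beside 0.01, 0.02 and 0.12 for all tested probes. The median of 0.12 with NICD1&2 was 0.01 after quantile normalization, 0.09 over probes detected on all arrays and 0.22 without a filter on dim probes. It varied with the probes and the scaling, so it was not taken off the value of a single gene. Exact permutation of the arrays cannot give a p under 0.1 for a single gene with 3 arrays against 3 or 2 against 3, and it gave that value, two-sided, for Tagln and Tgfb1 with NICD1.

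**Figure D3:**
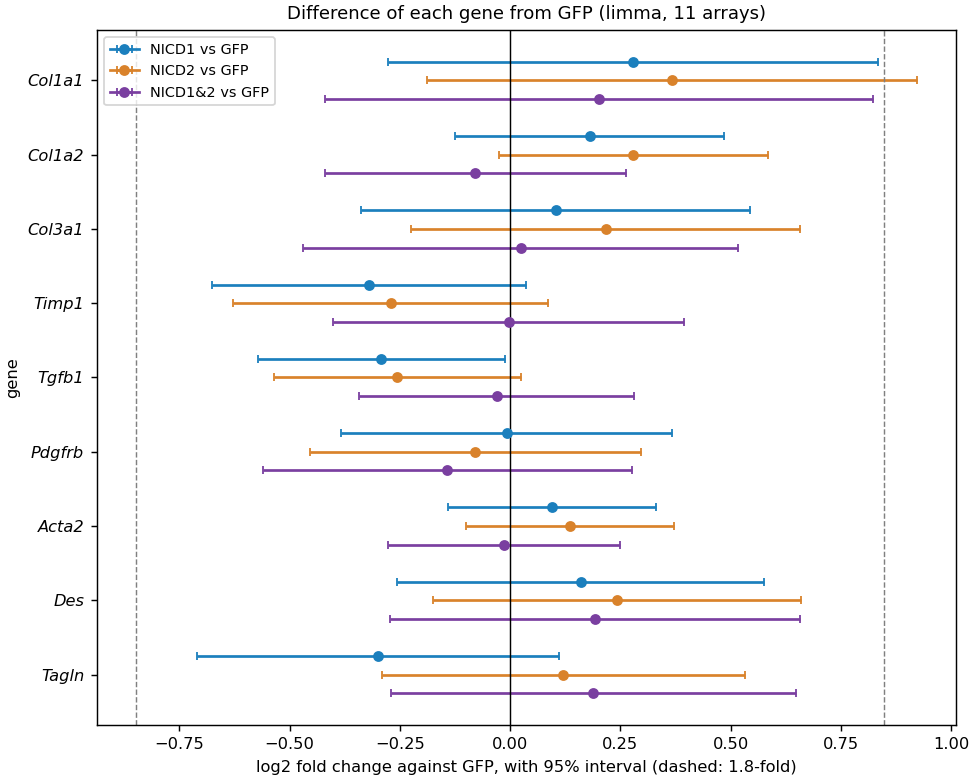
Log2 fold change of each gene's representative probe against GFP with its 95% interval, for NICD1, NICD2 and NICD1&2, from limma over 11 arrays. Dashed lines mark 1.8-fold, and 26 of the 27 intervals lie between them, with Col1a1 in NICD2 reaching 0.92.

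The number of genes whose arrays did not overlap with those of GFP was 2 of 9 with NICD1 (Tagln and Tgfb1, both lower), 0 of 9 with NICD2 and 0 of 9 with NICD1&2. Among all tested probes the arrays did not overlap for 12.4%, 13.3% and 34.5% in the same order. Between the NICD1 and NICD2 groups, 0 of 9 genes met the study definition and 0 were called, beside 1.26% and 0.00277% of all probes, and 1 of 9 did not overlap (Tagln), beside 9.26%. The Tagln difference between NICD1 and NICD2 was -0.42 on the log2 scale (95% interval -0.83 to -0.01, unadjusted p = 0.0458 and adjusted p = 0.9998 in limma). It was -0.20 on slide 1 and -0.66 on slide 2. The same probe differed between NICD1&2 and NICD1 by 0.49 (95% interval 0.03 to 0.95, adjusted p = 0.389 in limma), with overlapping arrays. NICD1&2 did not overlap with NICD1 for 3 of 9 genes, Col1a2 (lower), Timp1 and Tgfb1 (both higher), beside 30.7% of all probes, and with NICD2 for 1 of 9, Col1a2, beside 25.3%. These comparisons share arrays with each other and with the comparisons against GFP.

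The genes around this set were described from further lists. In the list of other stellate cell genes, 0 of 23 tested genes met the study definition in any comparison with GFP, and 1 was called, Adamtsl2, with NICD1&2. Adamtsl2 encodes a secreted protein that binds fibrillin and latent transforming growth factor beta binding protein. It read -1.98, -1.88 and -1.93 in GFP, -1.48, -1.58 and -1.54 in NICD1, -1.36, -1.21 and -1.24 in NICD2, and -1.12 and -1.24 in NICD1&2, so that every array with an NICD vector lay above every GFP array. The log2 fold change of Adamtsl2 was 0.40 (SE 0.09, adjusted p = 0.637) with NICD1, 0.66 (SE 0.09, adjusted p = 0.0564) with NICD2 and 0.75 (SE 0.10, adjusted p = 0.0409) with NICD1&2 in limma. Only the last passed, and leaving out any 1 array brought its adjusted p to between 0.0511 and 0.208. Both ends of that range came from fits with 1 NICD1&2 array, which is then assumed to vary like the arrays of the other groups. Adamtsl2 was called under 7 of 24 alternatives, and its log2 fold change was 0.33 with normexp background correction and quantile normalization, where it was still called. Lrat differed from GFP by 0.07, 0.04 and 0.06, and Reln by 0.12, 0.34 and 0.33, with adjusted p values of 0.324 or more in limma. Summed on the linear scale, the 23 genes of the list ranged from 335.0 to 364.6 in GFP, 326.9 to 380.2 in NICD1, 356.8 to 384.2 in NICD2 and 346.0 to 419.5 in NICD1&2, and those ranges overlapped. Of the 23 genes, 12 were higher than in GFP with NICD1, 18 with NICD2 and 17 with NICD1&2, beside 52.9%, 54.2% and 65.0% of all tested probes. The arrays lay wholly above GFP for 2, 7 and 6 of them and wholly below it for 3, 2 and 2, beside the 12.4%, 13.3% and 34.5% of all probes that did not overlap in either direction.

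Of 17 tested genes of other collagens, 0 met the study definition or were called in any of the 3 comparisons, and their median log2 fold change was 0.07 with NICD1, 0.12 with NICD2 and -0.04 with NICD1&2. In the list of collagen maturation and cross-linking, 1 of 20 genes met the definition, P4ha1 with NICD1. P4ha1 encodes a catalytic subunit of the prolyl hydroxylase that stabilises the collagen helix. It read -2.50, -2.19 and -1.83 in GFP and -1.30, -1.22 and -1.30 in NICD1, a log2 fold change of 0.90 (SE 0.19, adjusted p = 0.637 in limma). The NICD2 arrays of P4ha1 read -1.69, -1.76 and -1.56 and also lay above GFP, at 0.50 (SE 0.19), while NICD1&2 read -2.07 and -1.52 and overlapped with it. The NICD1 value of P4ha1 was 0.74 without GFP 1, 0.80 with the slide as a block and 0.76 as the mean over its tested probes, each below 1.8-fold. Its second tested probe had means of -2.76 in GFP and -2.14 in NICD1. The lysyl oxidase relatives Loxl1 and Loxl2 differed from GFP by 0.23 and 0.18 with NICD1, 0.20 and 0.29 with NICD2, and 0.06 and -0.02 with NICD1&2, without passing a threshold.

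Among 19 tested matrix proteases and inhibitors, 0 met the study definition with NICD1 or NICD2 and 1 did with NICD1&2, Serpine2, and 0 were called. Serpine2 encodes protease nexin 1, a secreted inhibitor of thrombin and urokinase. It read 1.71, 1.94 and 1.91 in GFP, 1.83, 2.74 and 2.56 in NICD1, 2.10, 2.91 and 2.61 in NICD2, and 2.82 and 2.60 in NICD1&2. The NICD2 and NICD1&2 arrays of Serpine2 lay above all GFP arrays, and 1 NICD1 array lay among them. The log2 fold changes were 0.52, 0.69 (both SE 0.26) and 0.86 (SE 0.29), with adjusted p values of 0.903, 0.667 and 0.261 in limma. The NICD1&2 value was below 1.8-fold without GFP 1 (0.79) or without NICD1&2 1 (0.75). The median log2 fold change of the 19 genes was 0.17 with NICD1, 0.24 with NICD2 and 0.20 with NICD1&2.

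In the list of transforming growth factor beta and PDGF signalling, 2 of 26 genes met the definition with NICD2 and 1 with NICD1&2. Smad6, an inhibitor of bone morphogenetic protein and transforming growth factor beta signalling, read -0.27, -0.32 and -0.49 in GFP, -0.72, -0.80 and -1.14 in NICD1, -1.21, -1.39 and -1.55 in NICD2, and -0.87 and -0.76 in NICD1&2. All NICD arrays of Smad6 lay below GFP, with log2 fold changes of -0.52 (SE 0.14), -1.02 (SE 0.14) and -0.45 (SE 0.16) and adjusted p values of 0.742, 0.0613 and 0.266 in limma. Ccn2, connective tissue growth factor, read -0.38, 0.95 and 1.57 in GFP, 1.98, 1.50 and 1.73 in NICD2, and 1.59 and 1.64 in NICD1&2. Its log2 fold change was 1.02 (SE 0.41, overlapping arrays) with NICD2 and 0.90 (SE 0.46) with NICD1&2, and GFP 1 was again the lowest array. Without GFP 1 these values were 0.47 and 0.36, and Ccn2 no longer met the definition. Tgfbr1 and Tgfbr2, the receptors of Tgfb1, differed from GFP by 0.24 and -0.09 with NICD1, 0.10 and 0.33 with NICD2, and 0.11 and 0.29 with NICD1&2, without passing a threshold.

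**Figure D4:**
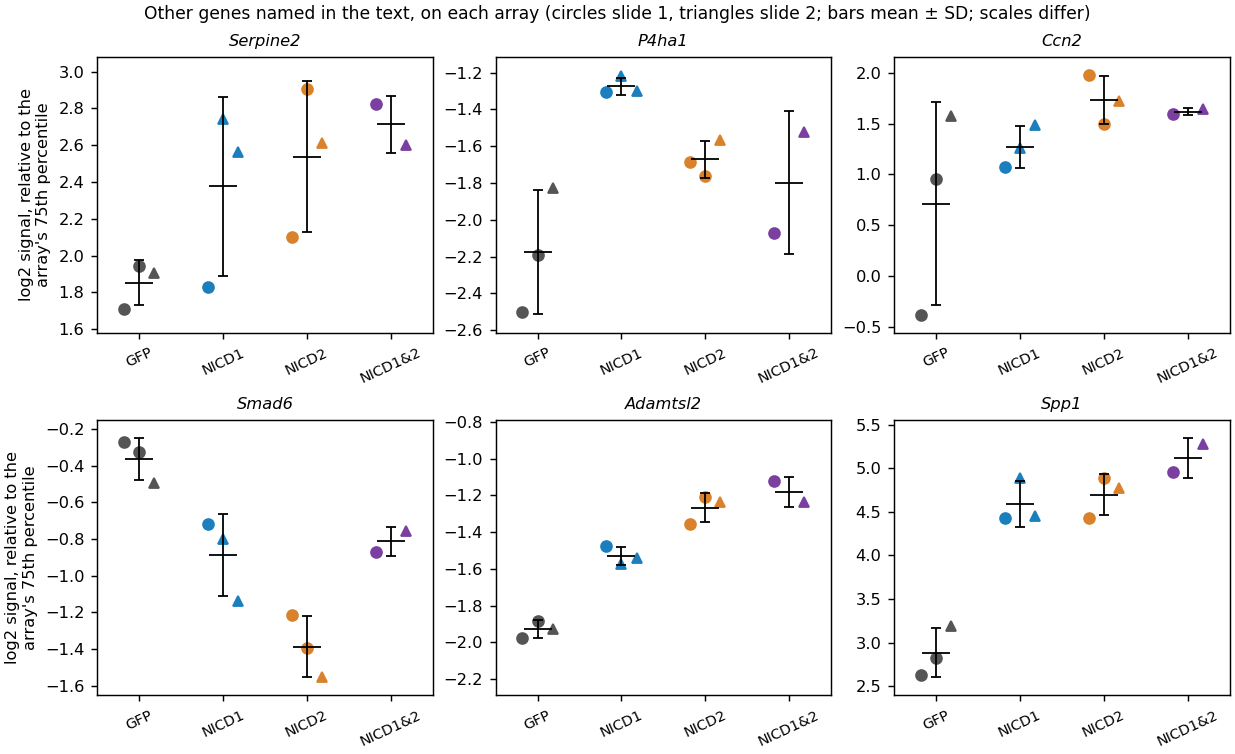
Log2 level of Serpine2, P4ha1, Ccn2, Smad6, Adamtsl2 and Spp1 on each array, relative to the array's 75th percentile, by group, with bars for mean ± SD and a scale of its own for each panel. All NICD arrays lie below all GFP arrays for Smad6 and above them for Adamtsl2 and Spp1.

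Of 41 genes of matrix glycoproteins and proteoglycans, Fbn2 (fibrillin 2) met the definition in all 3 comparisons, with Thbs1 beside it with NICD2 and Mfap5 with NICD1&2, each near the background. Fbn2 cleared the background on 1 of 3 GFP arrays and 2 of 2 NICD1&2 arrays, and its log2 fold change with NICD1&2 was 2.25 (SE 0.79, adjusted p = 0.268 in limma). Without GFP 1, which read -6.97, the Fbn2 value fell from 1.37 to 0.52 with NICD1, from 1.27 to 0.42 with NICD2 and from 2.25 to 1.40 with NICD1&2, and only the last stayed above 1.8-fold. As the mean over both tested probes that value was 0.83, below 1.8-fold, and as GFP cleared the background on 1 array its size is uncertain. The second Fbn2 probe ran the other way, with means of -4.38 in GFP, -4.66 in NICD1, -4.54 in NICD2 and -4.97 in NICD1&2. Thbs1 and Mfap5 lie outside the rule for named genes and were named after their values were seen. Of the 41 genes, 30 were higher than in GFP with NICD1, 33 with NICD2 and 34 with NICD1&2, beside 52.9%, 54.2% and 65.0% of all tested probes. The arrays lay wholly above GFP for 8, 3 and 11 of them and wholly below it for 1 in each comparison. Among all probes 12.4%, 13.3% and 34.5% did not overlap in either direction. On their representative probes the major matrix proteins Fn1 (fibronectin), Sparc and Lum lay within 0.22 of GFP in each comparison, while another Fn1 probe had a mean of 1.90 in GFP and 2.27 in NICD2. Of 18 tested contractile and myofibroblast genes and 6 tested smooth muscle genes, 0 met the definition or were called. Their medians were -0.03, 0.09 and -0.03 for the contractile list and 0.04, 0.14 and 0.06 for the smooth muscle list with NICD1, NICD2 and NICD1&2. In the portal fibroblast list Msln met the definition with NICD2 (0.87) and NICD1&2 (1.31) with overlapping arrays, named after its values were seen, and the other 12 genes did not.

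The lists for other cell types served to show what else moved in these livers. Of 13 endothelial genes, Lyve1, a hyaluronan receptor of sinusoidal endothelium, met the definition with NICD2 (0.86) and NICD1&2 (0.93), both close to the 1.8-fold limit. With NICD2, Lyve1 fell short of the limit without GFP 1 (0.79), GFP 2 (0.73) or NICD2 3 (0.78), and with NICD1&2 without GFP 2 (0.80) or NICD1&2 2 (0.84). Itgam, a macrophage integrin, met the definition with NICD1&2 (-0.98) on its brightest probe, but the mean over its tested probes was 0.11, and the brightest probe fell short of 1.8-fold without GFP 1 (-0.80) or without NICD1&2 2 (-0.79). In the bile duct list Spp1, osteopontin, was called with NICD2 and NICD1&2. Spp1 read 2.63, 2.83 and 3.20 in GFP, 4.43, 4.89 and 4.45 in NICD1, 4.43, 4.88 and 4.78 in NICD2, and 4.95 and 5.28 in NICD1&2. Its log2 fold change was 1.71, 1.81 (both SE 0.20) and 2.23 (SE 0.22), with adjusted p values of 0.0988, 0.0276 and 0.0114 in limma. On representative probes the largest value among the 9 stellate cell and matrix genes was 0.37, while the second Acta2 probe gave -0.56 with NICD1&2. With 1 array left out in turn, the adjusted p of Spp1 ran from 0.0316 to 0.144 with NICD2 and from 0.0164 to 0.186 with NICD1&2, where it was above 0.05 without GFP 2 or without NICD1&2 2, the latter again a fit with 1 NICD1&2 array. Sox9, a transcription factor of duct cells, met the definition with NICD1&2 (1.16, adjusted p = 0.198 in limma). That value rested on 1 of the 2 NICD1&2 arrays, since Sox9 gave 0.62, below 1.8-fold, without NICD1&2 1 and 1.69 without NICD1&2 2. Of 11 tested Notch targets, 2 met the definition with NICD1 (Nrarp and Spp1), 3 with NICD2 and 4 with NICD1&2, among them Hes1 (1.36) and Nrarp, which cleared the background on 0 of 3 GFP arrays and was at least 7.07-fold higher. With NICD2, Hes1 differed from GFP by 1.64 and Nrarp was at least 4.65-fold higher. With NICD1, Hes1 differed from GFP by -0.03 (SE 0.45), and Nrarp was at least 1.29-fold higher with overlapping arrays, 2 of 3 of them above the background. Both genes met the definition between NICD1 and NICD2, Hes1 at -1.67 and Nrarp at -1.85, with every NICD1 array below every NICD2 array and an adjusted p of 0.9998 in limma for each. These sizes depended on the processing. The alternative given next changed the signal used, the background correction, the offset and the normalization together, and their parts were not separated. An offset added to every signal lowers the ratios of dim probes, so it cannot decide whether the bounds for Nrarp hold. With normexp, an offset of 50 and quantile normalization, the log2 fold changes of Nrarp were 0.16, 0.53 and 0.68 with NICD1, NICD2 and NICD1&2. The bounds given for Nrarp were not reached in that setting, and it no longer met the definition. Hes1 then gave 0.75 with NICD2 and 0.50 with NICD1&2, Sox9 0.73 and Fbn2 0.15 with NICD1&2, P4ha1 0.37 with NICD1 and Smad6 -0.66 with NICD2, all below 1.8-fold, whereas Spp1 gave 1.68, 1.70 and 1.88. The 15 hepatocyte genes had medians of -0.11, 0.01 and 0.15, with 0 past a threshold.

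**Figure D5:**
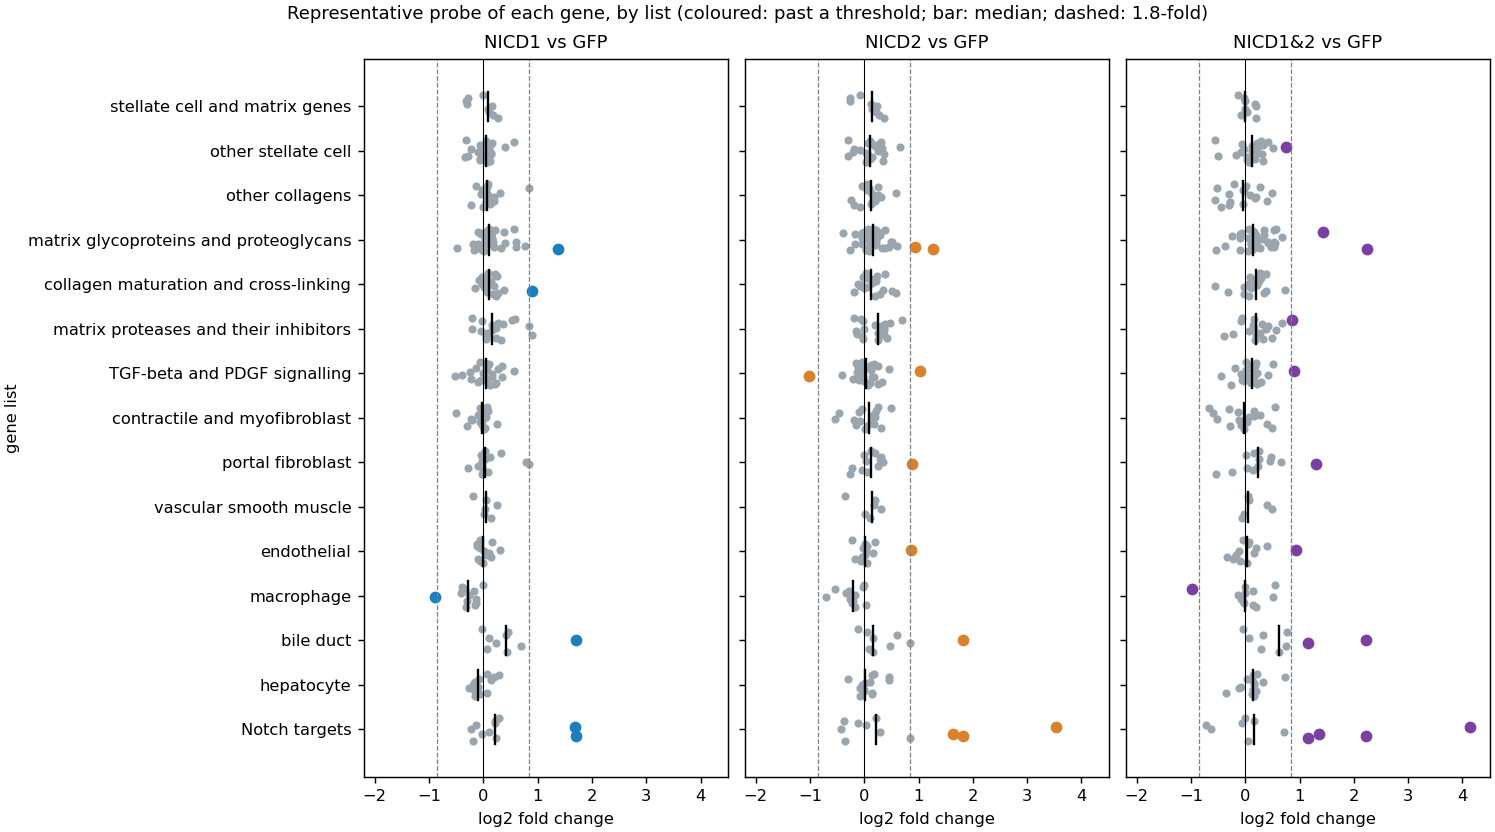
Log2 fold change of the representative probe of each gene against GFP, by gene list, in the 3 comparisons. Coloured points met the study definition or were called, bars are medians and dashed lines mark 1.8-fold. The 9 stellate cell and matrix genes and the other collagens, contractile, smooth muscle and hepatocyte lists hold 0 coloured points, and the points farthest to the right are Notch targets.

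The genes whose levels over the 11 arrays ran most like the mean of Col1a1, Col1a2 and Col3a1 were Tra2a, a splicing factor (Pearson r = 0.87), Kdm1a, a histone demethylase (0.86), Evc, a ciliary protein (0.86), Prkab2, an AMP kinase subunit (0.86), and Zbtb37, a zinc finger protein (0.84), out of 13858 genes detected on every array. The same measure was 0.82 for Des, 0.40 for Acta2, 0.39 for Pdgfrb and 0.37 for Tagln, and -0.09 for Timp1 and -0.23 for Tgfb1. These values describe the 11 arrays, which share a scaling and 2 slides, and were given no test.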

How the data were processed

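Liver RNA was measured on 11 Agilent 1-colour arrays. The labels name NucleoSpin RNA XS and the methods RNeasy Micro for extraction. Per the file headers, the authors scanned the arrays with Feature Extraction 11.5.1.1, and the deposited processed signals are intensities after subtraction of background and spatial trends, not normalized between arrays. The deposited table, made in GeneSpring, holds log2 values less each array's 75th percentile. It differed from the values computed here by at most 0.033 for the probes of the 10 genes. The array design was drawn up on mm9, and the promoter table on GRCm38.p6.

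Spots of 1 probe were averaged and control spots left out. The level was the log2 processed signal after subtraction of its 75th percentile on that array. A probe was tested if 2 or more arrays had it well above background, which kept 36055 of 56605, and a probe counted as above background if at least 50% of its spots were. A linear model with 1 mean per group over the 11 arrays was fitted in R 4.3.3 by limma 3.58.1 (lmFit, eBayes), with Benjamini-Hochberg adjustment over all tested probes, and checked on simulated data. The methods name rank, chi-squared and variance tests for group differences in general and do not say which gave the array P, so limma supplied the P of the study definition. The representative probe of a gene was its tested probe with the highest mean. The number of arrays limits the precision, with 3 per group and 2 for NICD1&2.

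The 10 genes and all further lists were chosen with earlier results of these data known, so no list was tested as a set. All probes of the 10 genes are named. From each further list and comparison against GFP, genes were named that were called, or that met the study definition with arrays on 1 side of all GFP arrays, at most the 3 highest and the 3 lowest. The 5 genes most like the fibrillar collagens were taken by Pearson r. Other genes are named as examples of their list, chosen after their values were seen, and 1 gene of the matrix protease list is not reported here. The alternatives tried covered scaling, background, filter, model, blocks, probes, thresholds and each array left out.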

Additional observations from a re-analysis of the deposited data

How the results depend on the processing

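Of the 9 tested genes, 0 met the study definition and 0 were called in all 4 comparisons under all 24 alternatives, of which 11 left out 1 array each, and the counts of called genes between NICD1&2 and each single vector also remained 0. The lowest adjusted p of the 9 genes over all alternatives was 0.621 for NICD1, 0.407 for NICD2, 0.122 for NICD1&2 and 0.843 for NICD1 against NICD2. The value of 0.122, of Tagln, came from a fit with 1 NICD1&2 array, which is then assumed to vary like the arrays of the other groups, as in every fit that left out an NICD1&2 array. Of their 36 differences, 19 had 1 sign under every alternative and 17 changed sign under at least 1, and the cause was not tested. For NICD1&2 the 2 arrays decided the sign, since Tagln gave 0.55 without NICD1&2 1 and -0.18 without NICD1&2 2, and Col1a1 gave 0.55 and -0.15. Averaging its probes took Acta2 with NICD1 to -0.16 and Tgfb1 with NICD1 to -0.13. Itgam with NICD1&2, at -0.98 on its brightest probe, was 0.11 as the mean over its tested probes. Of the 23 differences of further genes that passed a threshold and were recomputed, which leave out Marco, Thbs1, Mfap5 and Msln, 22 had 1 sign under every alternative and 1 passed under every one. Same-numbered arrays of different groups had residual correlations from -0.41 to 0.17 over 15 pairs, 6 of them over 0.1, so the numbers were not taken as pairs. With the replicate number as a block, 0 of the 9 genes met the definition and 0 were called, and their lowest adjusted p values were 0.917, 0.806, 0.619 and 0.9998 in limma for the 4 comparisons. Signal near the background limits Lox, Fbn2 and Nrarp.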

Other observations

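Col15a1, a basement membrane collagen, and P4ha2, an alternative to P4ha1 as catalytic subunit of prolyl hydroxylase, lie outside the rule for named genes and were named after their values were seen. P4ha2 read 1.03, 1.04 and 0.92 in GFP, 1.22, 1.44 and 1.49 in NICD1, 1.23, 1.48 and 1.29 in NICD2, and 1.63 and 1.85 in NICD1&2, so that every NICD array lay above every GFP array. Its log2 fold change was 0.39 (SE 0.12), 0.34 (SE 0.12) and 0.74 (SE 0.13), with adjusted p values of 0.782, 0.598 and 0.0994 in limma. Col15a1 was near the background, well above it on 4 of 11 arrays, and differed from GFP by 0.85 with NICD1, 0.08 with NICD2 and -0.52 with NICD1&2, with adjusted p values of 0.884, 0.993 and 0.489 in limma.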
